A study of Mus musculus with 8 samples.

Results

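The creatine kinases, adenylate kinase 1 and myoglobin were followed through RNA-seq of the embryonic mouse outflow tract (OFT), the vessel through which the developing heart empties. The genes were taken by name, as Ckm, Ckb, Ckmt1, Ckmt2, Ak1 and Mb. Earlier results of these data were known when they and the gene lists below were chosen. Of the 6 names, 5 matched a row of the table of 14608 genes, and Ckmt1 was not analysed here. Every library came from OFT tissue at embryonic day 11.5 (E11.5), pooled from 3 individuals per the labels. The 4 control libraries carry the genotype label Control. The 4 mutant-labelled libraries carry the label Mib1V943F/+ Gata6STOP/+, which stands for embryos heterozygous for a missense allele of Mib1, the ubiquitin ligase that activates NOTCH ligands, and for a premature stop allele of Gata6, a zinc finger transcription factor of the OFT. The libraries describe whole pooled tissue and not a cell type, so fewer cells of a type and less RNA per cell cannot be told apart.

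Creatine kinases move the high-energy phosphate of ATP onto creatine and back, so that phosphocreatine buffers ATP close to where it is spent. Ckm encodes the cytosolic muscle subunit, Ckb the cytosolic brain subunit, and Ckmt1 and Ckmt2 the ubiquitous and the sarcomeric mitochondrial enzymes. The embryonic heart is known for a high level of the brain subunit, and the muscle subunit gains ground as the heart matures. Ak1 encodes the cytosolic adenylate kinase, which makes ATP and AMP from a pair of ADP molecules and so complements the creatine kinases. Mb encodes myoglobin, the oxygen-binding globin of cardiac and oxidative skeletal muscle.

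The comparison of mutant with control OFT asks how gene expression differs when Mib1V943F and Gata6STOP are carried together. The values are CPM (reads of a gene scaled to a common library size) as normalized by the authors, and 1 read was worth 0.0325 to 0.0948 CPM, with control replicate 2 the shallowest library. By limma on log2(CPM + 0.5) with Benjamini-Hochberg adjustment, 0 of 14608 genes, 0.0% of all tested, passed the threshold of 0.05. The paper, with a generalized linear model in edgeR, reports genes changed in both directions at an adjusted p under 0.05. That test was not run here, so the 0 holds for limma on these values only. At an unadjusted p under 0.05, 967 genes (6.62%) were lower and 796 (5.45%) higher in the mutant-labelled libraries. Mutant-labelled library 2 stood apart, with a chi-square per gene of 30.8 to 33.7 against the other mutant-labelled libraries, where the other mutant-labelled pairs gave 9.38 to 12.4. Gata6 RNA, at 262 ± 18.5 CPM in control and 249 ± 36.1 CPM in mutant-labelled OFT (SD, n = 4), and Mib1 RNA, at 122 ± 15.6 and 128 ± 6.62 CPM, did not separate the labelled groups. The RNA level is no check of the missense allele of Mib1. For Gata6 the mutant-labelled mean was 95.2% of the control mean (log2 difference -0.08, 95% confidence interval -0.29 to 0.14). A loss of RNA from the stop allele, which the label would allow for, was thus not seen in these libraries. The paper, from quantitative PCR, reports Gata6 mRNA of this genotype at the predicted reduced level. The libraries are therefore called mutant-labelled, mutant for short in the plots.

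All 5 measured genes had a lower mean in the mutant-labelled libraries, with a log2 difference (mutant minus control) between -0.72 for Mb and -0.22 for Ak1, and none passed the adjusted threshold. Over all genes, 49.6% had a difference below 0 and the median was 0.00105, against a median of -0.35 over these 5. Unadjusted p-values under 0.05 were reached by 3 of the 5, Mb, Ak1 and Ckb, all on the lower side, against 6.62% of all genes. The 4 control values lay above the 4 mutant-labelled values for 2 of the 5, Ckb and Ak1, against 3.9% of all genes, and for 0 of the 5 did the mutant-labelled values lie above the control values, against 3.2%. Without mutant-labelled library 2, an alternative chosen after seeing the data, Mb joined them, which made 3 of 5 against 5.34% of all genes.

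**Figure D1:**
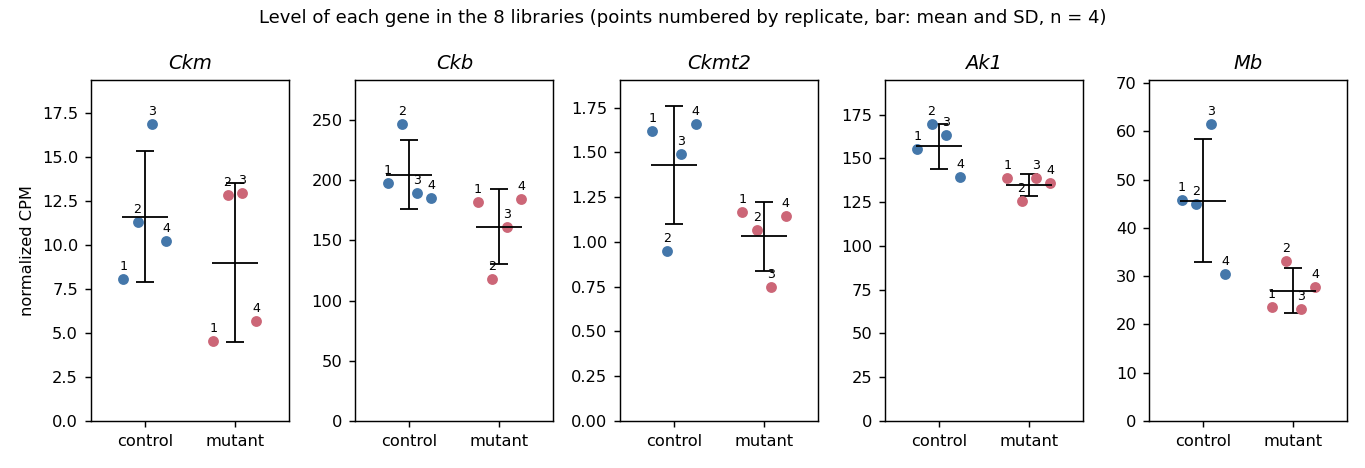
Normalized CPM (y axis, linear from 0) of the 5 measured genes in the 4 control and 4 mutant-labelled libraries, each point numbered by its replicate, with bars at the mean and SD. Ckb and Ak1 show no overlap between the groups, Mb overlaps through control 4 at 30.5 CPM and mutant 2 at 33.2 CPM, and Ckm spreads most widely within the mutant-labelled group.

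Levels were compared between genes only after dividing CPM by the length of the union of each gene's exons in kilobases. Ckb had the highest level per length, with 70.7 ± 9.82 CPM per kb in control and 55.7 ± 10.7 CPM per kb in mutant-labelled OFT (SD, n = 4). Ak1 came next, at 60.5 ± 5.02 and 52.0 ± 2.45 CPM per kb. These neighbours were not separated beyond their spread, since their ranges overlapped and Ckb was above Ak1 in 7 of 8 libraries, with mutant-labelled library 2 as the exception. Mb followed at 30.6 ± 8.49 and 18.1 ± 3.13 CPM per kb, Ckm at 3.99 ± 1.29 and 3.09 ± 1.55, and Ckmt2, the sarcomeric mitochondrial enzyme, at 0.962 ± 0.221 and 0.694 ± 0.130. From Ak1 downwards, the ranges of neighbouring genes did not overlap over the 8 libraries. With the longest protein-coding transcript as the length, an alternative chosen after seeing the data, the order of the 5 genes was the same but Ckb in control OFT stood at 139 CPM per kb.

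**Figure D2:**
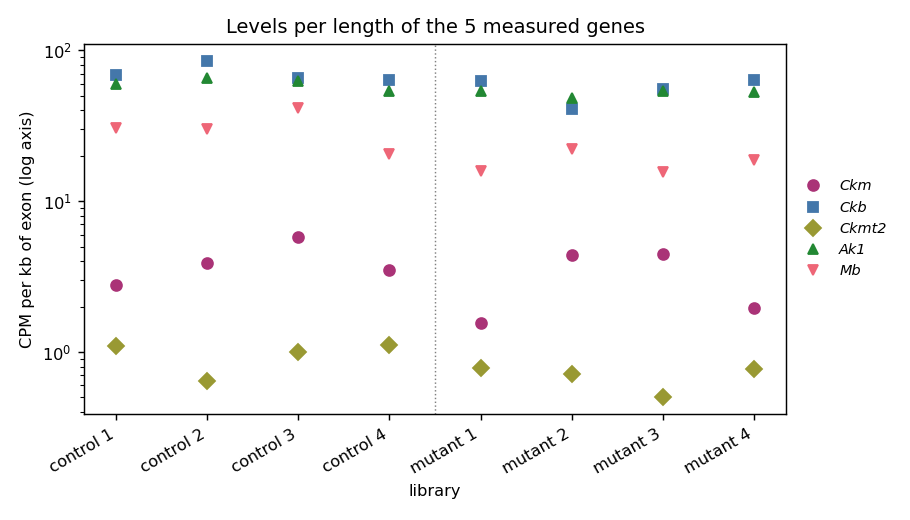
CPM per kb of exon (log axis) of the 5 measured genes in each of the 8 libraries, left of the dotted line control and right of it mutant. Ckb and Ak1 share the top, Mb lies below them, and Ckm and Ckmt2 stay at the bottom in all 8 libraries.

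Among the creatine kinases the brain subunit prevailed in both genotypes. Ckb gave 93.4% ± 2.002 of the creatine kinase CPM per kb in control and 93.2% ± 3.604 in mutant-labelled OFT (SD, n = 4). The share of Ckm, the muscle subunit, was 3.84%, 4.32%, 8.03% and 5.13% over the control libraries (replicates 1 to 4) and 2.38%, 9.64%, 7.34% and 2.93% over the mutant-labelled libraries. The mutant-labelled libraries thus held both the lowest and the highest Ckm share. The share depends on the length used, since with the longest protein-coding transcript Ckm gave 2.98% ± 1.08 in control and 3.13% ± 2.01 in mutant-labelled OFT, and Ckb 96.3% and 96.2%. The log2 ratio of Ckm to Ckb CPM was -4.18 ± 0.498 in control and -4.30 ± 1.04 in mutant-labelled OFT, a difference of -0.11 (two-sided exact permutation p = 0.857, n = 4 per group). This difference was positive, between 0.12 and 0.23, when control replicate 3, mutant-labelled library 1 or mutant-labelled library 4 was left out, so no direction can be read from it.

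The 250 bases before the RefSeq start of 4 of the genes are shown, since Ckb, Ak1 and Mb are the genes whose groups lay furthest apart for their spread and Ckm is the muscle counterpart of Ckb. They come from RefSeq on GRCm38.p6, are written 5′ to 3′ on the strand of the gene, and end at the base before the start. Capitals mark matches to the E-box CANNTG, to GATA on either strand, and to the MEF2 site, a known target of MEF2 factors in muscle genes.
The windows are chr12:111672339-111672588 (minus strand) for Ckb, chr7:19410844-19411093 (plus strand) for Ckm, chr2:32625187-32625436 (plus strand) for Ak1, which has 4 RefSeq windows, and chr15:77022788-77023037 (minus strand) for Mb, which has 3.
Ckb: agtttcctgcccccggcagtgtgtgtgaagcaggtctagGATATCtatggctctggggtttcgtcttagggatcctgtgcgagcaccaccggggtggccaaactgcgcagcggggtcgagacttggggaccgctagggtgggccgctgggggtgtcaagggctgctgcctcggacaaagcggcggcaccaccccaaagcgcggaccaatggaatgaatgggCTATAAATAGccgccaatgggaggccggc
Ckm: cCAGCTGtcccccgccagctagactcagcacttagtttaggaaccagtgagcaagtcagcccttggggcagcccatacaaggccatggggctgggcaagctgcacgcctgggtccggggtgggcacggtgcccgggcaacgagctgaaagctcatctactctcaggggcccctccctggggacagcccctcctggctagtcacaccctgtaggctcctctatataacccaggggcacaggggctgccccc
Ak1: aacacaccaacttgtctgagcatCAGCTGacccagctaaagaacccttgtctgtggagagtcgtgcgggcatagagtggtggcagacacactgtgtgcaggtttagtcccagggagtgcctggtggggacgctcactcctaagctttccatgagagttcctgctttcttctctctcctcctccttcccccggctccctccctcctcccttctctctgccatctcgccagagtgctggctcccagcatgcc
Mb: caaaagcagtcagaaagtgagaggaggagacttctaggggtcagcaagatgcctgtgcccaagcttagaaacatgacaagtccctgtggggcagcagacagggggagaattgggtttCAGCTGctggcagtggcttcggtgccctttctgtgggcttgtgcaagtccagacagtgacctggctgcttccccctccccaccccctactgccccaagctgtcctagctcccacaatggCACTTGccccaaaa

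The Ckb window held the MEF2 site CTATAAATAG from 29 to 20 bases before the start, and the same letters contain the TATAAA element from 28 to 23. Over 32851 RefSeq windows of this length, 0.508% held a MEF2 site on either strand and 12.4% held TATAAA. The Ckb window also held GATATC, which reads as GATA on both strands at overlapping positions, and 53.6% of all windows held GATA. E-boxes were present in the windows of Ckm (1, the letters CAGCTG), Ak1 (1), Mb (2) and Ckmt2 (4) and absent from that of Ckb, against 66.2% of all windows. No window of the 5 genes held a CArG box, the RBPJ letters TGGGAA or the ERR letters AAGGTCA on either strand, which occurred in 1.47%, 21.6% and 4.08% of all windows. These are matches of letters within these bases only and say nothing of a factor being bound.

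Ckb (ENSMUSG00000001270, chr12:111669361-111672338, minus strand, GRCm38, protein-coding) stood at 198, 246, 189 and 185.1 CPM in control replicates 1 to 4. In mutant-labelled libraries 1 to 4 it stood at 182, 118, 161 and 184.6 CPM. The groups did not overlap, but the lowest control and the highest mutant-labelled value were nearly equal, and the distance came largely from control replicate 2, the highest, and mutant-labelled library 2, the lowest. The means were 204.6 ± 28.4 and 161 ± 31.0 CPM (SD, n = 4), and the log2 difference was -0.35 (SE 0.14, 95% confidence interval -0.65 to -0.06, adjusted p = 0.362 by limma). The two-sided exact permutation p of 0.0286 is the smallest that 70 relabellings of 4 against 4 can give. Between 2599 and 5490 reads lay behind each value. Without mutant-labelled library 2 the difference was -0.21, and with the trend of each library on GC content removed it was also -0.21.

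Ckm (ENSMUSG00000030399, chr7:19404776-19422841, plus strand, GRCm38, protein-coding) stood at 8.07, 11.3, 16.9 and 10.3 CPM in control and at 4.53, 12.8, 12.9 and 5.67 CPM in mutant-labelled libraries 1 to 4. Mutant-labelled libraries 1 and 4 lay below every control library, while mutant-labelled libraries 2 and 3 lay above 3 of the 4, so the groups overlapped. The highest library had 3.72 times the level of the lowest. The means were 11.6 ± 3.74 and 8.995 ± 4.52 CPM, with a log2 difference of -0.44 (SE 0.31, 95% confidence interval -1.12 to 0.24, adjusted p = 0.570 by limma, n = 4). Between 97 and 418 reads lay behind each value. The difference was -0.18 without mutant-labelled library 1, -0.25 without control replicate 3 and -0.28 without mutant-labelled library 4. The annotation places A930016O22Rik on the opposite strand over Ckm, and it has no value here.

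Ckmt2 (ENSMUSG00000021622, chr13:91853387-91876885, minus strand, GRCm38, protein-coding) was the least abundant, at 1.62, 0.948, 1.49 and 1.66 CPM in control and 1.17, 1.07, 0.748 and 1.14 CPM in mutant-labelled libraries 1 to 4. Control replicate 2, the shallowest library, lay within the mutant-labelled range, and the other 3 control libraries lay above it. The log2 difference was -0.33 (SE 0.20, 95% confidence interval -0.77 to 0.12, adjusted p = 0.526 by limma, n = 4), and only 10 to 45 reads lay behind each value. On log2(CPM + 2) it shrank to -0.18, since the pseudocount then exceeds the level of the gene.

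Ak1 (ENSMUSG00000026817, chr2:32621758-32635058, plus strand, GRCm38, protein-coding) stood at 155, 169.6, 163 and 139.5 CPM in control and at 139, 126, 139.0 and 136 CPM in mutant-labelled libraries 1 to 4. The groups touched without overlapping, and the mutant-labelled libraries were the tighter group. The means were 157 ± 13.01 and 135 ± 6.36 CPM (SD, n = 4), and the log2 difference was -0.22 (SE 0.07, 95% confidence interval -0.37 to -0.06, adjusted p = 0.315 by limma). Its two-sided exact permutation p was 0.0286, again the smallest possible, and 1788 to 4312 reads lay behind each value.

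Mb (ENSMUSG00000018893, chr15:77015487-77050670, minus strand, GRCm38, protein-coding) stood at 45.7, 44.9, 61.5 and 30.5 CPM in control and at 23.7, 33.2, 23.1 and 27.8 CPM in mutant-labelled libraries 1 to 4. Mutant-labelled libraries 1, 3 and 4 lay below every control library, and mutant-labelled library 2 lay above control replicate 4. The mutant-labelled mean of 26.9 ± 4.67 CPM was 59.0% of the control mean of 45.7 ± 12.7 CPM (SD, n = 4), the largest difference among the 5 genes. The log2 difference was -0.72 (SE 0.18, 95% confidence interval -1.11 to -0.33, adjusted p = 0.228 by limma), and 0.342% of all genes had a lower one. The two-sided exact permutation p was 0.0571, and 474 to 1524 reads lay behind each value. The annotation places Apol6 and Gm49540 on the opposite strand over Mb, and neither has a value here. Whether the counting used strand is not given in the sources used here, so reads of such partners cannot be told apart from those of Mb or Ckm.

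Markers of cardiomyocytes, which express these genes, had lower means in the mutant-labelled libraries too. At an unadjusted p under 0.05, 12 of 13 were lower, against 6.62% of all genes, and 0 higher. For 9 of 13 the mutant-labelled values lay below the control values without overlap, against 3.9% of all genes, and the median log2 difference was -0.33. Their summed level was 26506 to 31135 CPM in control and 21071 to 24956 CPM in mutant-labelled OFT. Relative to the mean log2 level of the 13 markers in the same library, the difference was -0.27 for Mb (SD 0.32 in control and 0.36 in mutant-labelled OFT), 0.02 for Ckm, 0.10 for Ckb, 0.13 for Ckmt2 and 0.24 for Ak1. This mean is moved by Nppa, the natriuretic peptide gene, which had a log2 difference of -2.09. Relative to the 12 other markers, an alternative chosen after seeing the data, the difference was -0.40 for Mb (SD 0.34 and 0.26), -0.12 for Ckm, -0.03 for Ckb, -0.01 for Ckmt2 and 0.11 for Ak1. The groups overlapped for all 5 genes under both means, and the sign for Ckm, Ckb and Ckmt2 turned with Nppa. The part of cardiomyocyte content in the differences was not tested.

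**Figure D3:**
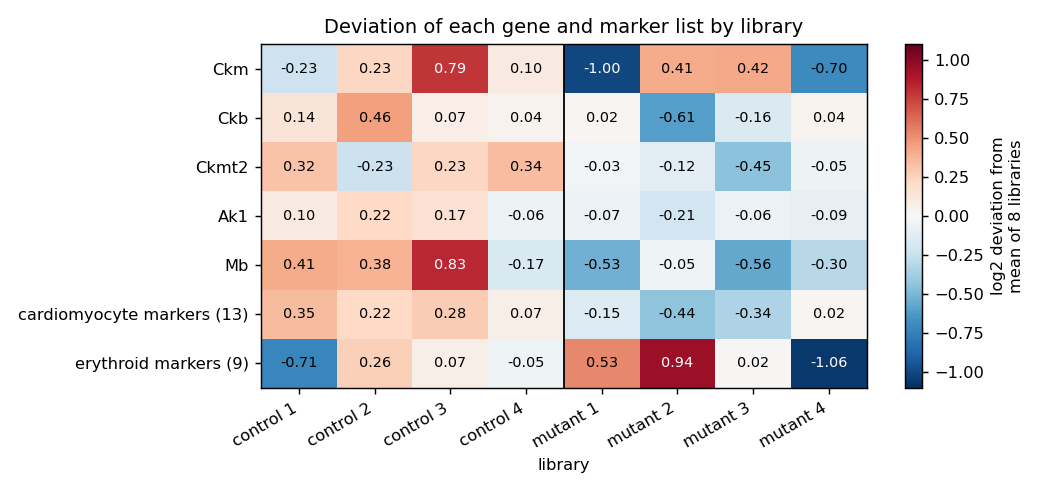
Deviation of log2 level from the mean of the 8 libraries (color scale and printed values) for the 5 measured genes and for the means of 13 cardiomyocyte and 9 erythroid markers, by library (x axis). Ckm ranged from -1.0005 in mutant 1 to 0.79 in control 3 and was above its mean in mutants 2 and 3, where the cardiomyocyte markers were at -0.44 and -0.34. The 12 markers other than Nppa, not drawn, were at -0.22 and -0.16 there. They were at -0.19 in mutant 1 and -0.07 in mutant 4.

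Skeletal muscle is the other main source of Ckm and Mb. Of 13 myoblast markers, 3 had a value, Neb, Actn3 and Tnnt3, and the defining factors Myod1, Myog, Myf5, Myf6 and Pax7 had no row. The 3 had a summed level of 7.96 to 11.5 CPM in control and 6.07 to 8.54 CPM in mutant-labelled OFT. All had a difference below 0, against 49.6% of all genes, with a median of -0.40. At an unadjusted p under 0.05, 1 of 3, Tnnt3, was lower, against 6.62% of all genes. The part of these markers in the differences of Ckm and Mb was not tested. The summed level of 9 erythroid markers ran from 1805 to 3686 CPM in control and from 1513 to 5649 CPM in mutant-labelled OFT. The ranges thus overlapped widely. A difference above 0 was seen for 9 of 9, beside 7359 of all 14608 genes. Their median was 0.20, and 0 reached an unadjusted p under 0.05. Smooth muscle markers had a median difference of 0.06, with 3 of 5 above 0 and 2 below. Among these 5, Myh11 and Cald1 were higher without overlap, against 3.2% of all genes. Endothelial and endocardial markers had a median of 0.00 among 6, cushion mesenchyme 0.05 among 5, epicardium 0.11 among 3, epithelium 0.04 among 2 and macrophages -0.17 among 4. Of the 4 macrophage markers, 2 were lower at an unadjusted p under 0.05, against 6.62% of all genes. Without overlap 1 was lower, against 3.9%, and 2 had a difference above 0. Of 6 markers of neural crest, glia and neurons, 4 had a difference above 0 and 2 below, with a median of 0.10. Among these 6, 2, Elavl4 and Stmn2, were higher without overlap, beside the same 3.2%.

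The 3 genes that supply creatine had differences below 0, and the other adenylate kinases lay on either side of it. Gatm and Gamt, which make creatine, stood at 9.88 ± 2.61 and 19.4 ± 1.13 CPM in control and at 8.30 ± 1.35 and 17.7 ± 1.399 CPM in mutant-labelled OFT (SD, n = 4). Slc6a8, the creatine transporter, stood at 84.95 ± 5.67 and 77.4 ± 3.42 CPM. Their log2 differences were -0.22, -0.13 and -0.13, and 0 of 3 reached an unadjusted p under 0.05. Among the other adenylate kinases, the log2 differences were -0.02 for Ak3, -0.03 for Ak4, 0.29 for Ak5 and 0.15 for Ak6, and 0 of these 4 reached an unadjusted p under 0.05. Cygb, the cytoglobin gene and the only other oxygen-binding globin of its list with a value, had a difference of 0.36 at about 1 CPM, on the opposite side to Mb, and the groups overlapped.

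Of 5 genes for the passage of ATP and ADP through mitochondrial membranes, 3 were lower in mutant-labelled OFT without overlap, against 3.9% of all genes. Slc25a4, the heart and muscle isoform of the ADP/ATP carrier, stood at 932 ± 60.9 CPM in control and 813 ± 25.1 CPM in mutant-labelled OFT without overlap (log2 difference -0.20, adjusted p = 0.333 by limma, n = 4). Slc25a5, the second carrier, and Vdac1, a porin of the outer membrane, did not overlap either, with -0.18 and -0.12. Of the other porins, Vdac2 stood at -0.10 and Vdac3 at 0.04, both with overlapping groups. Of 4 genes whose proteins anchor the muscle creatine kinase or use its ATP, 3 were lower at an unadjusted p under 0.05, against 6.62% of all genes. These were Myom1, Fhl2 and Atp2a2 (-0.24, -0.25 and -0.29). Myom2 stood at -0.06, and the groups overlapped for all 4. Of 6 nucleoside diphosphate kinases, 1, Nme4, reached an unadjusted p under 0.05, with overlapping groups (-0.22), and Nme7 stood at 0.11. Of 9 AMP deaminases and subunits of the AMP-activated kinase, 1 reached it, namely Prkaa1, the catalytic subunit alpha 1, at 53.2 ± 6.55 CPM in control and 62.0 ± 3.82 CPM in mutant-labelled OFT with overlapping groups (log2 difference 0.22, adjusted p = 0.383 by limma, n = 4). Counts of 1 in lists of this size are near the 12.1% of all genes with such a p in either direction.

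Muscle isoforms of energy metabolism lay on the same side as the 5 genes: 10 of 10 had a difference below 0, against 49.6% of all genes, and 8 of 10 were lower at an unadjusted p under 0.05, against 6.62%. Their median was -0.32, and that of all genes 0.00105. The smallest p of all lists belonged to Eno3, the muscle enolase, at 179 ± 6.86 CPM in control and 146 ± 6.19 CPM in mutant-labelled OFT (log2 difference -0.29, adjusted p = 0.185 by limma, n = 4). Pygm, the muscle glycogen phosphorylase, stood at 222 ± 20.7 and 172 ± 17.8 CPM (-0.36, adjusted p = 0.228 by limma). Pfkm, the muscle phosphofructokinase, stood at 141 ± 7.51 and 119 ± 3.99 CPM (-0.24, adjusted p = 0.234 by limma). None of these 3 overlapped between the groups. Regulators of muscle energy genes had a median of -0.18 among 13, with 6 lower at an unadjusted p under 0.05 beside the 6.62% of all genes. Among them Ppargc1b, a coactivator of mitochondrial genes, stood at 15.3 ± 2.19 and 10.7 ± 1.05 CPM without overlap (-0.50, adjusted p = 0.228 by limma). Mef2a and Hif1a, with 0.15 and 0.07, lay on the other side at overlapping values.

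Over the 56 pathway genes with a value of 66 listed, 20 were lower at an unadjusted p under 0.05, against 6.62% of all genes, and 1 was higher, against 5.45%. Of the 20, 8 were muscle isoforms of energy metabolism and 6 were regulators of muscle energy genes. Another 3 were genes that anchor the muscle creatine kinase or use its ATP. The rest were 2 genes of ATP and ADP passage and 1 nucleoside diphosphate kinase, and the other lists held 0. The pooled count thus came mostly from the muscle lists. Groups without overlap numbered 11 on the lower side, against 3.9% of all genes, and 0 on the higher side, against 3.2%. The median of the 56 was -0.14. The 0 calls at the adjusted threshold hold for every one of these genes.

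**Figure D4:**
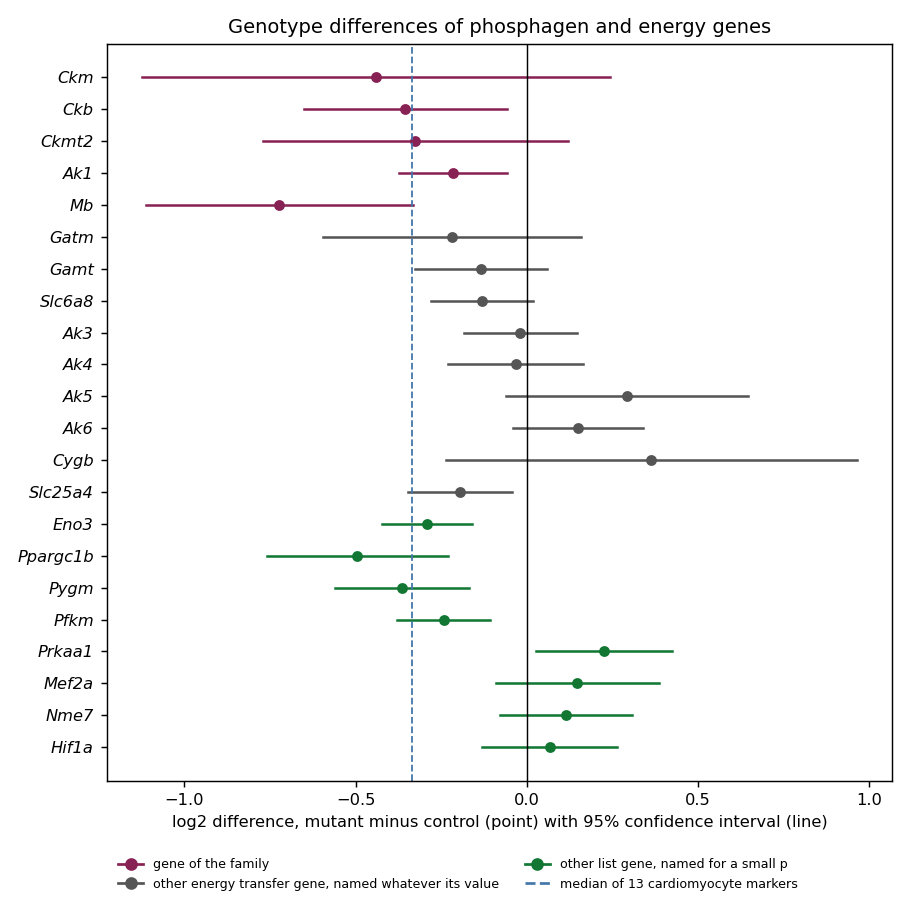
Log2 difference, mutant minus control (x axis, points), with 95% confidence intervals (lines) for the 5 measured genes and 17 other named genes, with the median of 13 cardiomyocyte markers as a dashed line at -0.33. The intervals of Ckb, Ak1 and Mb lie below 0, those of Ckm and Ckmt2 include it, and those of Ak3, Ak4, Ak5 and Ak6 include it too.

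The genes whose pattern over the 8 libraries was most like each gene were sought among those with a mean of at least 5 CPM, by the root mean square (RMS) difference of centred log2 levels, as a description with no test. For Ckb they were Gm16211, A530016L24Rik and Xrcc3, with RMS differences of 0.0564, 0.0591 and 0.0673 against an own RMS deviation of 0.281. For Ak1 they were Hcfc1r1, Slc12a4 and Ppp1r13b, at 0.0274, 0.0299 and 0.0315 against 0.138. For Mb they were Kcng2, Lgals9 and Nrap, a muscle anchoring protein gene, at 0.204, 0.213 and 0.225 against 0.464. The matches of Ckmt2 (Aqp4, Rgs7bp and Tfpi, 0.121 to 0.136 against 0.260) and of Ckm (Gm11575, Dact2 and Mrc1, 0.267 to 0.279 against 0.567) are given in the same way, and no other creatine kinase, Ak1 or Mb could appear, since members were left out of the search.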

How the data were processed

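RNA-seq was made from polyA RNA of 8 pools of OFT with a stranded kit and single reads of 60 bp. Per the methods, the authors trimmed adapters with cutadapt, quantified with RSEM over GRCm38 with the Ensembl genebuild, and kept genes with at least 1 CPM in 3 samples. The deposited CPM were normalized by the authors with the TMM method of edgeR. The table had 14608 genes, 0 columns of other samples, and 10669420 to 30469165 reads on listed genes per library, known because every value is a whole multiple of 1 constant per library. The labels name 3 individuals per pool and the methods 4 pairs of OFT in 3 pools, so the embryos behind a library are not known, and p-values measure the spread between these pools. TMM takes most genes as equal between libraries, so every value is relative to that centre.

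Groups came from the genotype label. Linear models were fitted to log2(CPM + 0.5) per gene with limma 3.58.1 (R 4.3.3), with moderated variances following the mean level. Benjamini-Hochberg adjustment was made over all genes, with a threshold of 0.05. The added 0.5 CPM understates the differences of low genes. Exact permutation tests over 70 relabellings were two-sided and are unadjusted for the 5 genes. The method was tested on simulated data. Exon lengths came from GENCODE M21 and promoters from RefSeq. Motifs were searched on both strands. Alternatives were pseudocounts of 0.1 and 2, a mean of at least 5 CPM, quantile, total and median-ratio scaling, a GC correction, a replicate block, and leaving out each library. The planned count tests of edgeR and DESeq2 were not run. The members, lists and alternatives were chosen with earlier results of these data known. Named genes were the members, all genes of creatine supply, the other adenylate kinases and globins, Slc25a4, the 4 other pathway genes with the smallest p in each direction, the 3 most similar genes per member, and Gata6 and Mib1. A gene that this rule names is not reported here. Slc25a5, the porins, the docking genes, Nme4, Nppa and marker genes named beside a count were chosen after their values were seen.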

Additional observations from a re-analysis of the deposited data

Results flagged for a closer look

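Each value here belongs to 1 library that lay far from the other 3 of its group, in 6 of 82 groups of 4 libraries examined, where chance alone gives about 1 in 20. Ak4, an adenylate kinase of the mitochondrial matrix, was lowest in mutant-labelled library 1, at 71.9 CPM. Slc25a4 was lowest in mutant-labelled library 3, at 774.96 CPM. Pfkm was highest in control replicate 3, at 152 CPM, and Nme7 in control replicate 4, at 20.003 CPM. Tfpi, one of the genes most like Ckmt2 in pattern, was lowest in control replicate 2, at 44.4 CPM. Kcng2, the gene most like Mb in pattern, was lowest in mutant-labelled library 3, at 16.6 CPM. None of Ckm, Ckb, Ckmt2, Ak1 and Mb was among them.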

How the results depend on the processing

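The 5 differences kept their direction, and 0 genes passed the adjusted threshold, under each of the 17 alternatives run, with Ckmt2 lacking a value under the minimum mean of 5 CPM. Leaving out each library in turn gave log2 differences of -0.65 to -0.18 for Ckm, -0.43 to -0.21 for Ckb, -0.46 to -0.23 for Ckmt2, -0.27 to -0.18 for Ak1 and -0.90 to -0.57 for Mb, where the adjusted p of limma ran from 0.0872 to 0.531. With the GC correction the differences were -0.36 for Ckm, -0.21 for Ckb, -0.32 for Ckmt2, -0.15 for Ak1 and -0.66 for Mb. The unadjusted p of limma stayed under 0.05 for Mb and Ak1. For Ckb it was 0.0757 without control replicate 2, 0.0519 without mutant-labelled library 2 and 0.0534 with the replicate block. It was 0.0308 for Ckm with the replicate block and 0.0384 for Ckmt2 without control replicate 2. The difference of the log2 ratio of Ckm to Ckb ran from -0.48 to 0.23, and was reversed without control replicate 3 (0.12), mutant-labelled library 1 (0.23) or mutant-labelled library 4 (0.13). The cause was not tested. The pathway genes lower at an unadjusted p under 0.05 numbered 15 to 20 without single libraries, and 17 to 20 under the other alternatives. Cardiomyocyte markers lower at that p numbered 9 to 12.

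Same-numbered control and mutant-labelled libraries correlated at 0.03, -0.19, 0.03 and -0.05 in their deviations, so the numbers were not taken as pairs, although the design text speaks of 4 pairs. With the replicate block the 5 differences were the same (-0.44, -0.35, -0.33, -0.22 and -0.72 for Ckm, Ckb, Ckmt2, Ak1 and Mb), the adjusted p by limma ran from 0.455 to 0.627, and 0 genes passed. For the ratio of Ckm to Ckb the paired difference was -0.11 (exact sign-flip p = 0.875, with 0.125 the smallest that 4 pairs allow).

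The edgeR and DESeq2 tests on whole reads were not run. Depth limits Ckmt2 most, at 10 to 45 reads per library.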

Other observations

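Nppa, the gene of the atrial natriuretic peptide, spread more widely than any creatine kinase within the mutant-labelled group. Over replicates 1 to 4, the control libraries held 157, 99.1, 122 and 65.9 CPM. The mutant-labelled libraries held 61.9, 5.67, 8.68 and 109 CPM. Mutant-labelled libraries 2 and 3, where Nppa was lowest, were the mutant-labelled libraries with the highest Ckm, at 12.8 and 12.9 CPM. Mutant-labelled libraries 1 and 4 had the lowest Ckm, at 4.53 and 5.67 CPM. Among the control libraries, replicate 1, with the highest Nppa, had the lowest Ckm, at 8.07 CPM. Ckm was highest in replicate 3, at 16.9 CPM, where Nppa stood at 122 CPM. In replicate 4, where Nppa was lowest, Ckm stood at 10.3 CPM. With 4 libraries per group the order in the mutant-labelled group is given as values only, and it was noticed after the values were seen.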
